A study of Mus musculus with 6 samples.

Results

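The let-7 family comprises the 9 mature microRNAs (miRNAs) let-7a, let-7b, let-7c, let-7d, let-7e, let-7f, let-7g, let-7i and miR-98, chosen by name among the 103 miRNAs with a normalized value on a real-time PCR array. They were measured in osteoclasts, the multinucleated cells that resorb bone, which were sorted magnetically from mouse bone marrow for the surface receptor OSCAR and the calcitonin receptor (CTR). The mice had undergone transection of the anterior cruciate ligament (ACLT), which destabilises the knee and serves as a model of osteoarthritis, or a Sham operation, and cells were taken at 2 weeks in both groups. There were 3 ACLT and 3 Sham samples. Equal RNA of 3 mice per group was pooled, per the series text. The sources used here do not say whether the 3 samples of a group are separate mice or repeats on the pool, and they give no strain, sex or age. The p-values below therefore reflect sample-to-sample spread alone, part or all of which may be technical.

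let-7 was first described as a regulator of developmental timing in the worm Caenorhabditis elegans, and its family is among the most conserved of animal miRNAs. Its members rise as cells differentiate, and they repress growth and pluripotency genes such as Lin28a, Hmga2 and members of the Ras family. LIN28 proteins in turn bind let-7 precursors and block their maturation. All members recognise targets mainly through bases 2 to 8 at the 5′ end, the seed, which the family shares.

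The mature sequences show how little separates the assays. All 9 deposited sequences are 22 bases long and matched the RefSeq 5p strand of the same name (build GRCm38.p6). They are written 5′ to 3′ with the seed in capitals.
let-7a: uGAGGUAGuagguuguauaguu
let-7b: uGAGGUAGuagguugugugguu
let-7c: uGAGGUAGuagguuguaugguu
let-7d: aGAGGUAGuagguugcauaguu
let-7e: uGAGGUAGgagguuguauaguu
let-7f: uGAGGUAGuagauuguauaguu
let-7g: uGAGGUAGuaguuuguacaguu
let-7i: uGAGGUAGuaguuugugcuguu
miR-98: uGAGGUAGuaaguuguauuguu

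The 9 carry 1 seed, GAGGUAG. With positions counted from 1 at the 5′ end, let-7c differs from let-7a by A19G, let-7e by U9G and let-7f by G12A. Of the 36 pairs of members 4 differ by 1 base; the fourth is let-7b against let-7c, which differ by G17A. let-7i is the member farthest from let-7a (G12U, A17G, U18C and A19U). How far an assay reads its 1-base neighbours was not tested.

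RefSeq places the members in several transcripts. let-7a (Mirlet7a-1, chr13:48538239-48538260, minus strand), let-7f (Mirlet7f-1, chr13:48537889-48537910) and let-7d (chr13:48536078-48536099) lie close together on the same strand. let-7f has another locus on the X chromosome (Mirlet7f-2, chrX:151912353-151912374), which lies with miR-98 (chrX:151913229-151913250) inside Huwe1, a ubiquitin ligase gene. let-7c (Mirlet7c-2, chr15:85706616-85706637) and let-7b (chr15:85707325-85707346) lie inside the long non-coding gene Lncppara, and let-7c has another locus at chr16:77599672-77599693. let-7g (chr9:106178846-106178867) lies inside Wdr82, let-7e (chr17:17830366-17830387) inside Spaca6, and let-7i (chr10:122985698-122985719) within no other annotated gene. A mature miRNA made from several loci is read by 1 assay, so the loci cannot be told apart.

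Each value began as a threshold cycle (Ct), on which 1 cycle less is a factor of 2 more RNA at full efficiency. The level used below is minus ΔCt, the Ct of the small nuclear RNA U6 minus that of the miRNA in the same sample, a log2 scale on which higher is more RNA. All 9 assays lay on the first of 2 plates, so that differences between members of a sample do not depend on the normalizer. Levels of different assays are compared on the assumption that all amplify equally well. Of 719 wells listed, 110 had a Ct in all 6 samples and the rest in none; sample medians of Ct ran from 27.7 to 28.5.

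Before the results, a property of the samples has to be stated. In samples 2 and 3 of each group, most Ct values were tied by a constant factor: within 0.002 cycles, the Ct of sample 3 equalled that of sample 2 times or divided by 0.99 in 77 of 110 wells in ACLT and by 0.97843 in 82 of 110 wells in Sham. The other 13 pairs of samples shared a factor in 2 to 4 wells. Within the family all 9 members were tied in Sham and 5 in ACLT (let-7d, let-7e, let-7g, let-7i and miR-98); let-7a, let-7b, let-7c and let-7f were not tied in ACLT. Over all 103 miRNAs, 71 were tied in both groups. In Sham the Ct of sample 3 was the higher one for 6 members and the lower one for let-7d, let-7i and miR-98, so that the composition of Sham sample 3 follows from that of Sham sample 2 and the direction of the factor. SDs over 3 samples therefore count a dependent value. The limma counts with U6 at an adjusted p under 0.05 are also given with samples 2 and 3 averaged into 1 and with only samples 1 and 2. So are the calls of let-7e relative to the family median and of miR-99b*. Neighbours called apart, counts of non-overlapping levels, marker calls and percentages of non-overlap over all tested miRNAs are not, so they carry this limit. The same holds for limma counts with other normalizers and for percentages of all tested miRNAs that passed relative to the family.

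let-7a, let-7c, let-7i, let-7f and let-7b were the abundant members, miR-98 and let-7d were intermediate, and let-7e and let-7g were scarce, in the same order of means in both groups. The level of let-7a was 4.81, 3.21 and 5.25 in ACLT samples 1 to 3 and 2.62, 4.03 and 3.08 in Sham. The means of 4.42 ± 1.08 and 3.25 ± 0.72 (SD, n = 3 each) were the highest of the family and ranked 3 (ACLT) and 2 (Sham) among the 100 miRNAs tested. At the other end let-7g stood at -2.68, -3.24 and -2.80 in ACLT and -3.90, -2.59 and -3.69 in Sham. Of the members not described sample by sample below, let-7b had levels of 1.86 to 2.51 in ACLT and 2.07 to 3.05 in Sham, let-7d of -0.29 to 0.85 and -1.05 to 0.34, and let-7i of 2.27 to 3.85 and 1.72 to 3.52. In each of these the ranges of the groups overlapped. The distance from the highest to the lowest member was 86.8-fold to 308-fold in the 6 samples. ACLT sample 2 had the smallest span and ACLT sample 3 the largest.

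**Figure D1:**
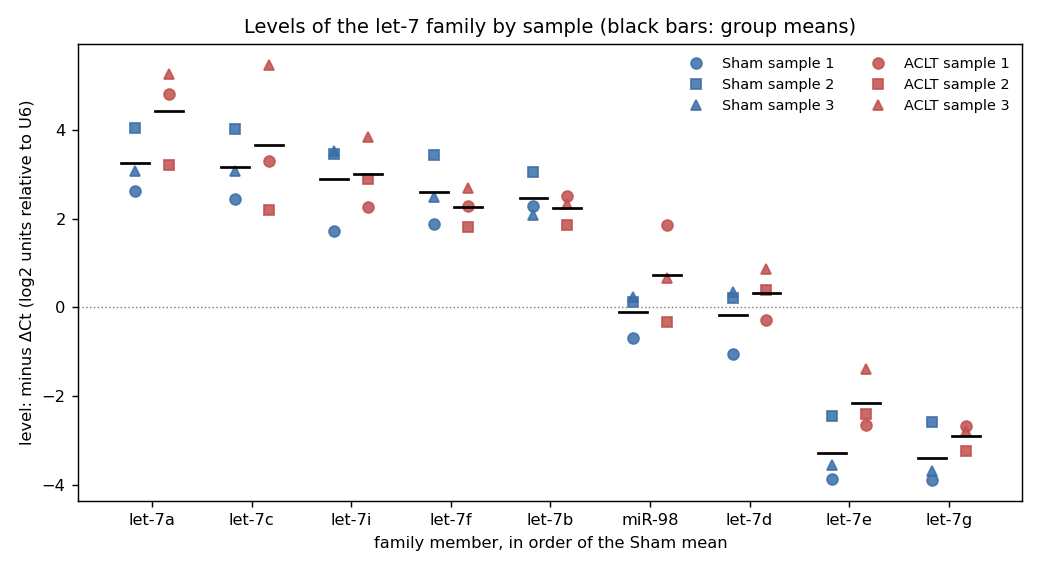
Levels of the 9 members (minus ΔCt, log2 units relative to U6) in each sample, Sham in blue and ACLT in red, with the sample number as the symbol and group means as black bars. Members are ordered by the Sham mean, from let-7a at 3.25 to let-7g at -3.39, and the groups overlap for every member.

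Most neighbours in this order could not be told apart. A pair counted as apart if the within-sample difference had the same sign in all 3 samples and a mean above its SD, and 3 of 8 neighbouring pairs met this in ACLT and 3 of 8 in Sham. In both groups these were let-7b above miR-98, let-7d above let-7e, and let-7e above let-7g. All members were tied in Sham, so sample 3 was not a separate observation there. let-7e and let-7g were tied in the same direction, which could narrow the SD of their difference. let-7b and miR-98 were tied in opposite directions, as were let-7d and let-7e, which moved sample 3 away. Their Sham differences were 2.971, 2.933 and 1.829 for let-7b over miR-98 and 2.824, 2.673 and 3.895 for let-7d over let-7e. In ACLT let-7d, let-7e and let-7g were tied, let-7e and let-7g in opposite directions. The step from let-7b to miR-98 was 1.51 ± 0.78 in ACLT and 2.58 ± 0.65 in Sham, and that from let-7d to let-7e was 2.47 ± 0.29 and 3.13 ± 0.67 (SD of 3 differences, log2). Neighbours among the 5 abundant members did not meet it in either group, nor did miR-98 with let-7d. Members farther apart in the order could meet it: let-7a exceeded let-7f in all 6 samples, by 2.16 ± 0.67 in ACLT and 0.64 ± 0.08 in Sham. let-7e exceeded let-7g by only 0.026, 0.13 and 0.133 in Sham against 0.019, 0.818 and 1.40 in ACLT.

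The share of each member in the family was taken as its amount, 2 to the power of its level, over the sum of the 9 amounts. The 5 abundant members made up 91.8% to 96.5% of the family in every sample, and let-7e with let-7g 0.399% to 0.956%. let-7a held 48.4%, 30.0% and 34.0% in ACLT and 25.0%, 25.1% and 20.8% in Sham, so that every ACLT sample lay above every Sham sample. let-7f did the opposite, with 8.41%, 11.5% and 5.71% in ACLT and 15.0%, 16.7% and 13.7% in Sham. These were 2 of 9 members whose shares did not overlap between groups; of all 100 tested miRNAs 37.0% did not overlap when set against the let-7 total in the same way, a larger percentage than in the family.

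The mean share of let-7a was 37.5% ± 9.64 in ACLT and 23.6% ± 2.44 in Sham, a difference of 13.9 percentage points, and that of let-7f was 8.53% ± 2.88 and 15.1% ± 1.48, a difference of -6.59. No test was run on shares. With samples 2 and 3 averaged the differences were 17.1 and -6.65. Without ACLT sample 1, which had the highest let-7a share, that of let-7a was 8.41, and leaving out any one sample gave 8.41 to 17.6 for let-7a and -8.06 to -5.18 for let-7f. Leaving out ACLT sample 2 raised the number of members with non-overlapping shares from 2 to 5. With fewer samples groups separate more readily, and the percentage over all tested miRNAs was not computed for this setting.

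let-7c had the most uneven share, 16.9%, 14.9% and 39.5% in ACLT against 21.9%, 24.8% and 20.6% in Sham. In ACLT sample 3 let-7c led the family, as let-7i did in Sham sample 3, while let-7a led in the other 4 samples. let-7i varied from 8.33% to 24.0% in ACLT and from 13.4% to 28.2% in Sham, and let-7b from 4.49% to 11.8% and from 10.3% to 19.7%. miR-98 held 6.23% in ACLT sample 1 and 1.41% to 2.91% elsewhere, and let-7d held 1.42% to 4.23%.

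**Figure D2:**
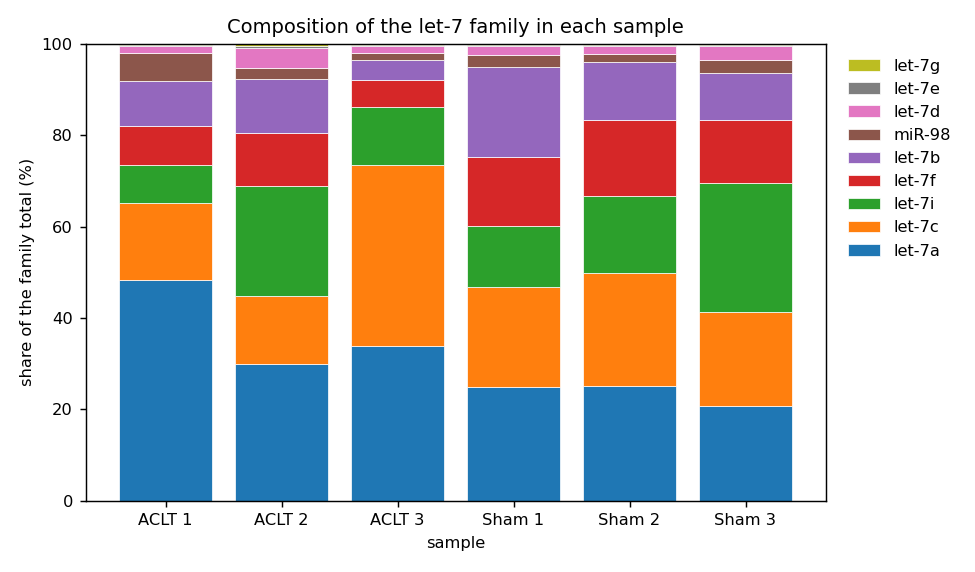
Share of each member in the family total (%), stacked from 0 to 100 for each of the 6 samples. The let-7a block is 30.0% or more in the 3 ACLT samples and 25.1% or less in the 3 Sham samples, and the let-7c block is largest in ACLT sample 3, at 39.5%.

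ACLT samples were set against Sham samples to find osteoclast miRNAs that differ 2 weeks after the ligament is cut. No member of the family passed: of 9 tested, 0 had a limma adjusted p under 0.05, while 20.0% of the 100 tested miRNAs did (13.0% higher and 7.0% lower in ACLT). At an unadjusted p under 0.05 there was 1 member, let-7a, against 27 of the 100. With samples 2 and 3 averaged, and with only samples 1 and 2, the limma count for the family was again 0 (1 and 0 at an unadjusted p under 0.05), when 11 and 3 of all tested miRNAs passed. The levels of the groups overlapped for all 9 members; they did not overlap for 26.0% of the tested miRNAs, 18.0% being higher in ACLT.

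let-7a had the largest change, 1.18 ± 0.54 (SE, log2; 95% interval 0.111 to 2.24; limma adjusted p = 0.122). The SEs and intervals of this fit use a spread that limma pooled over the tested miRNAs, not that of the member alone. The SDs of let-7a itself were 1.08 in ACLT and 0.72 in Sham. The change of let-7a depended on the samples kept. It ranged from 0.76 without ACLT sample 3 to 1.78 without ACLT sample 2, where it passed (limma adjusted p = 0.0288). let-7e, the scarce member with U9G, stood at 1.14 ± 0.60 (interval -0.031 to 2.31; limma adjusted p = 0.188), from levels of -2.66, -2.42 and -1.40 in ACLT and -3.87, -2.46 and -3.56 in Sham. Here 2 ACLT samples lay above every Sham sample, and ACLT sample 1 lay below Sham sample 2. On raw Ct let-7e passed (1.06, limma adjusted p = 0.0357), among 30 of the 100 tested. Its Ct did not overlap between groups, but how many of all tested miRNAs did so on raw Ct was not counted. let-7e was tied in both groups, so sample 3 was not a separate value, and this call was not repeated with tied samples averaged. miR-98 stood at 0.84 ± 0.64 (limma adjusted p = 0.417), with levels of 1.85, -0.34 and 0.66 in ACLT and -0.69, 0.11 and 0.24 in Sham. Its first ACLT sample was the highest of the 6 and its second was lower than 2 Sham samples, and the change was 0.27 without ACLT sample 1.

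let-7c, let-7d and let-7g lay near 0.5: 0.48, 0.48 and 0.49, with limma adjusted p-values of 0.605, 0.627 and 0.612. That of let-7c rested on ACLT sample 3, whose level of 5.47 compared with 3.29 and 2.19 in the other ACLT samples and 2.43, 4.02 and 3.07 in Sham; without it the change was -0.43. let-7i stood at 0.10 (interval -1.03 to 1.23) and turned to -0.49 without Sham sample 1. let-7b and let-7f were the only members below 0, at -0.23 and -0.34 (limma adjusted p = 0.809 and 0.704), and both turned above 0 (0.057 and 0.078) without Sham sample 2. let-7f had levels of 2.28, 1.82 and 2.68 in ACLT and 1.89, 3.45 and 2.48 in Sham, with Sham sample 2 above all ACLT samples. The interval of each of the 9 members reached beyond 0.9 in at least 1 direction, so changes of that size were not resolved.

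The median change of the members was 0.48, beside 0.24 for all 100 tested miRNAs, with 7 members above 0 and 2 below. It was 0.11 without Sham sample 1, 0.21 without ACLT sample 3, 0.89 without Sham sample 2, 0.57 with samples 2 and 3 averaged and 0.29 with only samples 1 and 2. The family total, relative to U6 at 1, was 57.8, 30.7 and 112 in ACLT and 24.6, 65.4 and 40.7 in Sham. The lowest total was a Sham sample and the highest an ACLT sample, and the other 4 interleaved. In sorted bulk samples fewer cells of a type and less RNA per cell cannot be told apart.

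The sign of the family's change depended on the normalizer. The median was 0.41 on raw Ct and 0.036 when centred on the median miRNA, but -0.16 with reference 2, -0.39 after quantile normalization, -0.64 with the 3 references averaged and -2.25 with reference 3. Reference 3, an unnamed assay, itself differed by -2.66 cycles (ACLT minus Sham Ct) on this plate, while U6 differed by 0.077. With reference 3 all 9 members passed as lower, among 88 of the 100 tested. With quantile normalization let-7b (-1.56) and let-7f (-1.71) passed as lower and let-7e (1.28) as higher, among 25 of the 100 tested. Apart from quantile normalization, each normalizer shown shifts all members of a sample by the same amount, so their order cannot change. After quantile normalization the order did change. let-7a (-0.39) then lay below let-7e, let-7g (0.97), miR-98 (-0.17) and let-7d (-0.22), while let-7a and let-7e stayed above let-7b and let-7f.

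**Figure D3:**
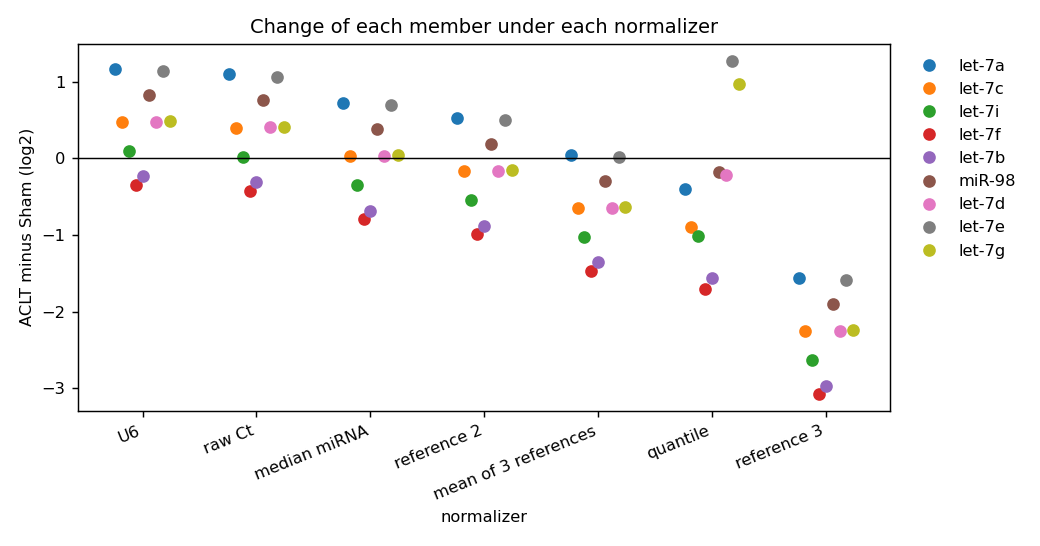
Change of each member (ACLT minus Sham, log2) with each of 7 normalizers on the x axis. Except under quantile normalization the pattern moves up or down as a whole, with let-7a from 1.18 (U6) to -1.56 (reference 3) and let-7f from -0.34 to -3.08.

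To ask which members left the common change, levels were set against the family itself in the same sample, which removes U6. Relative to the median member let-7e alone passed, at 1.28 ± 0.34 (SE, log2; limma adjusted p = 0.0306), 1 of 9 members where 24.0% of all tested miRNAs passed (17.0% higher, 7.0% lower). let-7a was at 1.31 ± 0.50 (adjusted p = 0.0852) and let-7g at 0.63 ± 0.23 (adjusted p = 0.0795). The median level belonged to let-7b, let-7f or let-7i in every sample, the 3 members with the lowest changes, so this scale puts the others high. Relative to the mean of the 9 levels, an alternative chosen after seeing the data, no member passed, where 36.0% of all tested miRNAs did (13.0% higher, 23.0% lower; 0 members at an unadjusted p under 0.05): let-7a stood at 0.72 and let-7e at 0.68 (limma adjusted p = 0.329 and 0.180), let-7f at -0.80 and let-7b at -0.69 (adjusted p = 0.239 and 0.320). let-7c, let-7d and let-7g lay within 0.033 of the family mean. limma used 7.27 degrees of freedom relative to the median and 400 relative to the mean. The percentages that passed are therefore not directly comparable.

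The call of let-7e relative to the median also ended without ACLT sample 3 and without each of the Sham samples, and it ended with samples 2 and 3 averaged (1.12, limma adjusted p = 0.114) and with only samples 1 and 2 (0.97, adjusted p = 0.0984). Without ACLT sample 2 let-7a passed in its place, at 1.76. The data thus gave no member that left the common change under all these settings.

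**Figure D4:**
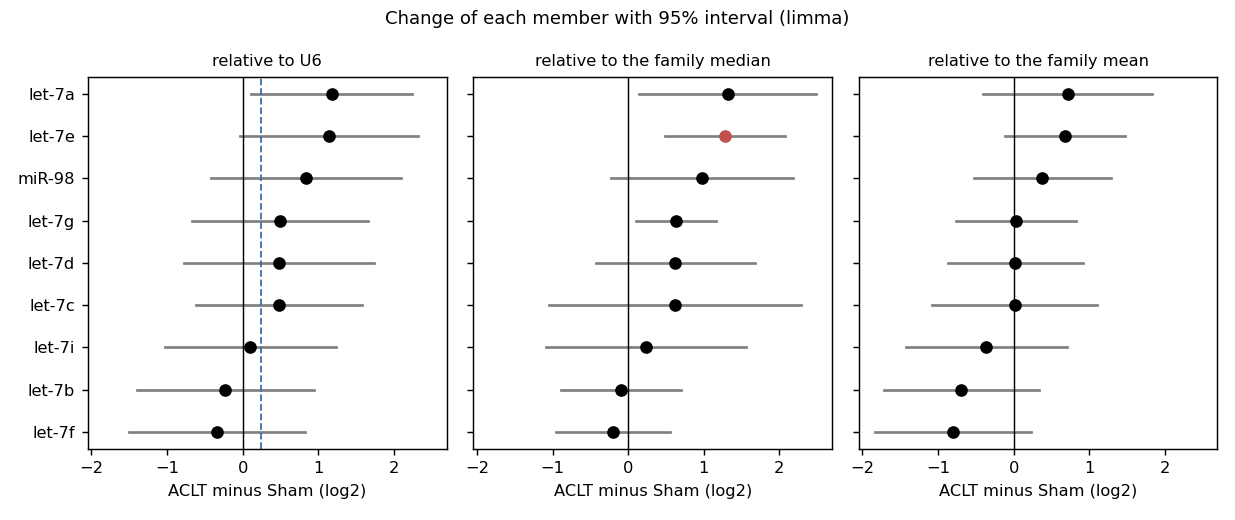
Change of each member (ACLT minus Sham, log2) with its 95% limma interval, relative to U6 (left), to the family median (middle) and to the family mean (right); red marks an adjusted p under 0.05 and the dashed line the median of all tested miRNAs at 0.24. let-7a and let-7e lie highest and let-7b and let-7f lowest on each scale, and the red point is let-7e at 1.28.

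Among the pairs that differ by 1 base, let-7a and let-7f moved apart most. let-7a exceeded let-7f by 2.52, 1.39 and 2.57 in ACLT and by 0.74, 0.59 and 0.60 in Sham. The groups did not overlap, and the mean difference grew by 1.52, a factor of 2.87; the pair was named after its values were seen and was not tested. let-7a and let-7c were within 0.189 of each other in all Sham samples but apart by 1.52, 1.02 and -0.22 in ACLT. let-7a exceeded let-7e by 6.58 ± 0.92 in ACLT and 6.54 ± 0.08 in Sham, a difference of 0.035 that lay within the spread. In Sham all these members were tied in the same direction, so the small Sham spreads rest in part on a dependent value. In ACLT let-7a, let-7c and let-7f were not tied, so the spreads of the groups are not alike in kind. Over the 36 pairs the smallest root mean square distance between profiles, each centred on its own mean, was 0.290 log2 units, for let-7d and let-7i, which differ by 6 bases; no pair differs by more. The pairs that differ by 1 base had distances of 0.535 (let-7a with let-7e), 0.625 (with let-7c), 0.854 (with let-7f) and 0.980 (let-7b with let-7c).

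Members encoded side by side had different values. On chromosome 13 let-7a stood at 1.18, let-7d at 0.48 and let-7f at -0.34. In Huwe1 miR-98 stood at 0.84 beside let-7f, and in Lncppara let-7c stood at 0.48 beside let-7b at -0.23. These differences between members were not tested against each other, and let-7a, let-7c and let-7f have other loci.

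The miRNAs that share transcripts with let-7 were taken as a list of 8 cluster partners, of which 4 had a Ct. miR-99b, encoded beside let-7e, stood at 0.58, miR-99a, encoded beside a let-7c locus, at 0.79, and miR-100, encoded beside a let-7a locus, at 0.45 (limma adjusted p = 0.590, 0.417 and 0.627). None of these 3 passed. The fourth, the passenger strand miR-99b*, had a Ct of 34.5, 36.2 and 34.9 in ACLT and 32.3, 33.3 and 34.0 in Sham. It was tested only because Sham, where it is more abundant, met the limit of 35; ACLT sample 2 lay over that limit, and with the limit required in all 6 samples it was not tested. Its change of -2.14 (limma adjusted p = 0.0444) is therefore a description. The call also ended with reference 2, after quantile normalization, with samples 2 and 3 averaged (adjusted p = 0.108), with only samples 1 and 2 (0.125) and without any one sample other than Sham sample 3. None of the 8 let-7 passenger strands on the array had a Ct in any sample.

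The 3 miRNAs outside the family most like its mean profile over the 6 samples were miR-330, miR-455 and miR-93, with root mean square distances of 0.208, 0.257 and 0.262 log2 units, against a median of 0.640 over the 91 compared. Their changes were 0.39, 0.59 and 0.77 (limma adjusted p = 0.676, 0.577 and 0.417). All 3 were tied in both groups, so their sample 3 followed from sample 2 and is not a separate point of likeness. Of the members themselves let-7g was closest to the mean profile at 0.291 and miR-98 farthest at 0.645.

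Of 17 marker miRNAs of other cells in marrow and of myeloid cells, 12 had a Ct and 3 of these passed, all higher in ACLT, beside 13.0% of all tested miRNAs that passed as higher. These were 3 of the 4 mesenchymal markers: miR-145 by 2.61, miR-199a-3p by 2.43 and miR-214 by 3.44 (log2; limma adjusted p of 0.000945 or less). The fourth, miR-143, stood at -0.67 (adjusted p = 0.504), and of the other 8 markers 4 lay above 0 and 4 below, none passing. The summed level of the 12, relative to U6, was 42.2 to 59.3 in ACLT and 8.75 to 11.6 in Sham. miR-223 and miR-142-3p, abundant in myeloid cells, were among the 5 with no Ct, while miR-142-5p had one. The array holds miRNA assays, so the sorted receptors and other osteoclast mRNAs were not analysed here. The part of other cells in the let-7 values was not tested.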

How the data were processed

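Osteoclast RNA of 3 ACLT and 3 Sham samples was isolated in Trizol, turned into cDNA (QuantiMir) and measured by SYBR Green PCR of 40 cycles, per the labels' protocols. Baseline and threshold settings were not stated there. The authors deposited raw Ct, ΔCt on a log2 scale and a linear ratio of ACLT to Sham. ΔCt equalled the raw Ct minus that of 1 reference well per plate, named U6 per the file headers, and the deposited ratio was recomputed from it with a largest deviation of 3.6e-15.

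Levels were minus ΔCt. Tests covered the 100 of 103 miRNAs for which 1 or both groups had every Ct under 35. limma 3.58.1 in R 4.3.3 (lmFit, eBayes with a trend, two-sided, Benjamini-Hochberg over all tested miRNAs) was run on the levels and again on levels relative to the family median; the code was tested on simulated data. In the first fit limma pooled the spread to 400 degrees of freedom, although wells of a sample share cells and normalizer. The fit relative to the family mean also had 400, and that relative to the family median 7.27. Shares, order and distances were computed in Python 3.11.15. With 3 against 3 samples an exact permutation test cannot go below 0.1, so none is given. An array has no read depth, and the number of samples limits precision.

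The miRNAs named are the 9 members, the cluster partners and passenger strands with a Ct, and the 3 others with the nearest profile; other names were chosen after their values were seen. Members and lists were chosen with earlier results of these data known. Alternatives were other normalizers, Ct limits, other variance models, a block for the replicate number, leaving out samples, averaging tied samples and an amplification factor of 1.9. Same-numbered samples of the groups were not taken as pairs, since their deviations correlated by 0.245, 0.056 and 0.066.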

Additional observations from a re-analysis of the deposited data

How the results depend on the processing

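Groups of 3 samples and tied samples limit every value here, and signs near 0 are not resolved. The number of miRNAs changed in ACLT, 20 with U6, ranged from 13 to 30 across fits that omit 1 sample. Averaging samples 2 and 3 gave 11, and keeping only samples 1 and 2 gave 3. Other normalizers gave 36 (median miRNA), 88 (reference 3), 40 (the 3 references averaged), 25 (quantile) and 30 (raw Ct). With reference 2 the limma count was 0 (2 at an unadjusted p under 0.05). let-7 members past the threshold, 0 with U6, were 9 (reference 3), 1 (the 3 references averaged), 3 (quantile), 1 (raw Ct) and 0 to 1 across fits that omit 1 sample. With the 3 references averaged it was let-7f (-1.47, limma adjusted p = 0.042), and on raw Ct let-7e. The median change of the members, 0.48, was -0.16 (reference 2), -2.25 (reference 3), -0.64 (the 3 references averaged), -0.39 (quantile) and 0.11 to 0.89 across fits that omit 1 sample. The number of members that passed relative to the family median, 1, was 0 in 3 settings (averaging samples 2 and 3, keeping only samples 1 and 2, and setting levels against the family mean) and 0 to 1 across fits that omit 1 sample. The number of members with non-overlapping shares, 2, was 2 to 5 across fits that omit 1 sample. An amplification factor of 1.9 left it at 2, and averaging samples 2 and 3 gave 3. Groups of fewer samples separate more readily, and the percentage over all tested miRNAs was not computed for these settings. The cause of these differences was not tested.

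These changes turned sign. Centred on the median miRNA: let-7i -0.35 and miR-330 -0.053. With reference 2: let-7c -0.17, let-7d -0.16, let-7g -0.15, let-7i -0.54, miR-99b -0.067, miR-100 -0.19, miR-330 -0.25 and miR-455 -0.051. With reference 3: let-7a -1.56, let-7c -2.26, let-7d -2.25, let-7e -1.59, let-7g -2.24, let-7i -2.63, miR-98 -1.90, miR-99a -1.95, miR-99b -2.16, miR-100 -2.29, miR-330 -2.34, miR-455 -2.14 and miR-93 -1.96. With the 3 references averaged: let-7c -0.65, let-7d -0.64, let-7g -0.63, let-7i -1.03, miR-98 -0.29, miR-99a -0.34, miR-99b -0.55, miR-100 -0.68, miR-330 -0.73, miR-455 -0.53 and miR-93 -0.35. After quantile normalization: let-7a -0.39, let-7c -0.90, let-7d -0.22, let-7i -1.01, miR-98 -0.17 and miR-99b -0.20. With only samples 1 and 2: let-7c -0.49, let-7i -0.016 and, relative to the family median, let-7c -0.15. Relative to the family mean: let-7i -0.36. Omitting 1 sample gave -0.43 to 1.21 for let-7c, -0.49 to 0.47 for let-7i, -0.43 to 0.057 for let-7b and -0.70 to 0.078 for let-7f, and, relative to the family median, -0.20 to 1.18 for let-7c, -0.089 to 0.67 for let-7i and -0.19 to 0.094 for let-7b.

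With the replicate number as a block, 14 miRNAs in place of 20 passed, let-7 members stayed at 0, the call of miR-99b* ended (limma adjusted p = 0.161) and let-7e alone passed relative to the family median. Not every ACLT sample correlated best with the Sham sample of its number.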

Other observations

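Some members had a near-equal partner among unrelated miRNAs on other wells. let-7e, at a Ct of 28.6, 28.5 and 28.3 in ACLT and 29.2, 29.4 and 30.0 in Sham, differed from miR-325 by 0.010 to 0.094 cycles in all 6 samples, and let-7d differed from miR-421 by 0.016 to 0.142 cycles. let-7b differed from miR-191 by 0.014 to 0.164 cycles. let-7e, miR-325, let-7d and miR-421 were tied in both groups, and let-7b and miR-191 in Sham. There sample 3 followed from sample 2 and is not a separate match. Of the 4950 pairs of tested miRNAs 19 lay within 0.15 cycles of each other in every sample, 2 of them with a let-7 member, and 35 miRNAs took part in such a pair. The nearest profile of a member belonged to another member in 1 of 9 cases, let-7c with let-7a. miR-98 lay nearest to miR-106b, at a root mean square distance of 0.118 log2 units. The median nearest distance was 0.118 over the members and 0.111 over the other tested miRNAs. These names were chosen after their values were seen, and no explanation was tested.

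By mean level among the 100 tested miRNAs, let-7b ranked 9th in Sham and 23rd in ACLT and let-7f 8th and 22nd, while let-7e ranked 77th and 55th. These ranks compare assays and assume equal amplification. The changes of let-7b, let-7f and let-7e were -0.23, -0.34 and 1.14. None passed (limma adjusted p = 0.809, 0.704 and 0.188), and the groups overlapped for each.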
